A study of Mus musculus with 4 samples.

Results

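Homologous recombination, Fanconi anemia and damage checkpoint genes were described as a list of 30 gene symbols, looked up in the deposited table by Ensembl ID with the symbols of GENCODE mouse release M21. Of the 30, 29 were found among the 12390 genes of the table, and Rad51c was not analysed here. The samples were 4 RNA libraries from about 5000 sorted mouse bone marrow cells each, taken by flow cytometry as hematopoietic stem cells, negative for lineage markers and CD48 and positive for Sca-1, c-Kit and CD150. The Ddx21_CKO libraries (CKO, n = 2, genotype KO in the labels) came from mice whose genotype the design text writes as Ddx211fl/fl,CAG-CreERT2. The Ddx21_fl libraries (fl, n = 2, genotype WT in the labels) came from Ddx211fl/fl mice, so both groups carry floxed Ddx21 alleles and only CKO carries the Cre. Ddx21 encodes a nucleolar DEAD-box RNA helicase. CAG is a promoter active in most cell types, and CreERT2 is a Cre recombinase that tamoxifen switches on, so the deletion need not be limited to blood cells. An effect of the Cre itself cannot be told apart from that of the deletion. The sources used here give neither the mice's age and sex nor the tamoxifen dose and the time after it, and do not say whether replicates came from separate animals. The p-values therefore rest on spread between these libraries, which may be technical. In limma on the deposited values that spread was a trend over all genes, not each gene's own.

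Homologous recombination copies a broken DNA end from the sister chromatid, and BRCA1, PALB2 and BRCA2 load the recombinase onto the resected end. The Fanconi anemia pathway removes links between the strands of DNA: a core complex attaches ubiquitin to the FANCD2 and FANCI pair, which then recruits nucleases. ATM and ATR are the kinases that signal breaks and stalled forks to CHEK2 and CHEK1. In humans, inherited loss of Fanconi genes leads to bone marrow failure, and in mice several of these genes are needed to maintain hematopoietic stem cells.

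Ddx21 (ENSMUSG00000020075, chromosome 10, 62580251 to 62602281, minus strand, mm10) had 6.20 and 6.60 RPKM in the CKO libraries, against 10.95 and 12.1 RPKM in the fl libraries. It was lower in both CKO libraries, and its log2 fold change, -0.76 (SE 0.30), missed the limma threshold (adjusted p = 0.158). It passed with voom on rescaled reads (adjusted p = 0.0390). In limma it did not pass after rescaling (adjusted p = 0.102), with quantile normalization (adjusted p = 0.154) or with a replicate block (adjusted p = 0.541). Without CKO replicate 1 its log2 fold change was -0.72. The values cover the whole gene, not the floxed part alone. Reads recovered from the values summed to 43256641 and 43218009 in the CKO libraries and to 55719256 and 62871440 in the fl libraries. The stem cell transcription factor genes Hlf and Mecom were detected at 4.95 and 6.82 RPKM in CKO and 3.62 and 3.70 RPKM in fl for Hlf and at 4.77 and 7.45 RPKM in CKO and 3.06 and 3.60 RPKM in fl for Mecom. Among the most abundant transcripts was the neutrophil elastase gene Elane, at 14535 and 9267 RPKM in CKO and 19569.9 and 19798 RPKM in fl. Fewer cells of a type and less RNA per cell cannot be told apart in these data.

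None of the 29 recombination, Fanconi and checkpoint genes passed the test between CKO and fl in either direction. The test was limma on log2(RPKM + 1) with Benjamini-Hochberg adjustment over the 11742 genes that averaged 1 RPKM or more, and all 29 were among these. Over all genes tested, 3.33% were called higher and 0.860% lower in CKO at an adjusted p under 0.05, and at an unadjusted p under 0.05 it was 1 of the 29, Chek2, against 16.2% of all genes. Adjusted p-values of the list ran upward from 0.213. Voom on recovered reads with rescaling also called 0 of the 29, with a smallest adjusted p of 0.283, and 0.307% of all genes higher and 0.111% lower. Every one of the 29 had a positive log2 fold change, from 0.090 for Fancf to 0.57 for Fancl, with a median of 0.25. Bard1, Fancm and Atm averaged 0.89, 0.92 and 0.90 RPKM in fl, so they passed the filter of 1 RPKM only through the CKO libraries. Their positive signs, and their place in counts of genes higher in CKO without overlap, are therefore no independent result. Over all genes 83.1% were positive and the median was 0.31, so the list lay close to the table as a whole.

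The common shift was larger in CKO replicate 2 than in CKO replicate 1. Against the mean of the fl libraries, the median of the 29 genes stood at 0.093 in CKO replicate 1 and 0.52 in CKO replicate 2 on the log2 scale, beside 0.12 and 0.50 for all genes. CKO replicate 2 was the highest library for 28 of the 29 genes, against 78.6% of all genes, and the exception was Fancf. For 19 of the 29 the gap between the CKO libraries exceeded the difference of the group means, against 65.6% of all genes. In 18 of the 29 both CKO libraries lay above both fl libraries and in 0 both lay below, while 55.5% of all genes were higher and 7.38% lower without overlap. The 18 include Bard1, Fancm and Atm, which passed the filter only through CKO. To take the common shift out, libraries were divided by factors from a trimmed mean of ratios (0.976 and 1.33 for the CKO libraries, 0.900 and 0.857 for the fl libraries), which is called rescaling here. It moved the median of all genes to -0.0028 and that of the 29 to -0.0023. After rescaling 14 of the 29 were above 0 and 15 below, from -0.20 for Topbp1 to 0.25 for Fancl, and 50.4% of all genes were below 0. Groups then did not overlap for 5 genes higher (Brca2, Fancc, Fancl, Atm and Chek2) and 4 lower in CKO (Xrcc2, Xrcc3, Rad54l and Topbp1), against 26.7% and 27.9% of all genes, and limma called 0 of the 29 and 0 genes in all. At an unadjusted p under 0.05 it was then 0 of the 29, against 15.6% of all genes.

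**Figure D1:**
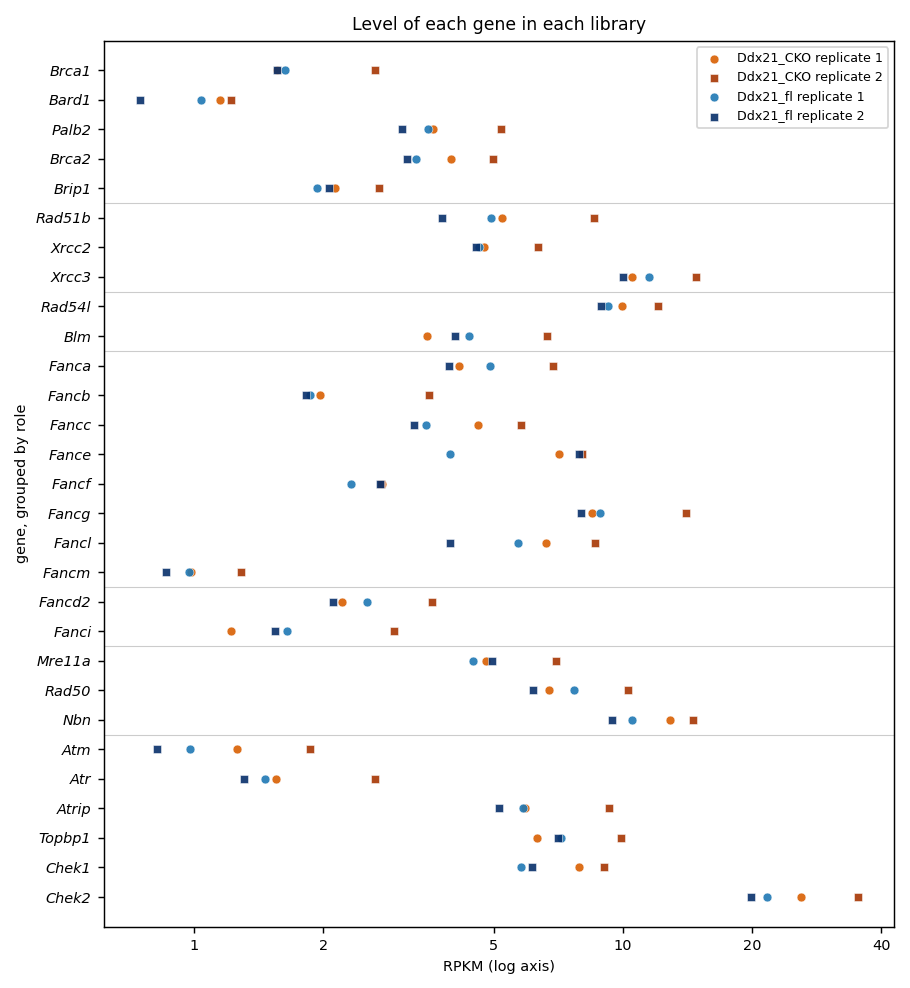
Level of each of the 29 genes in each library, in RPKM on a log axis, with CKO libraries in orange tones and fl libraries in blue tones; circles are replicate 1 and squares replicate 2. CKO replicate 2 is the rightmost point for 28 of the 29 genes, and Chek2 has the highest mean level (25.8 RPKM).

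**Figure D2:**
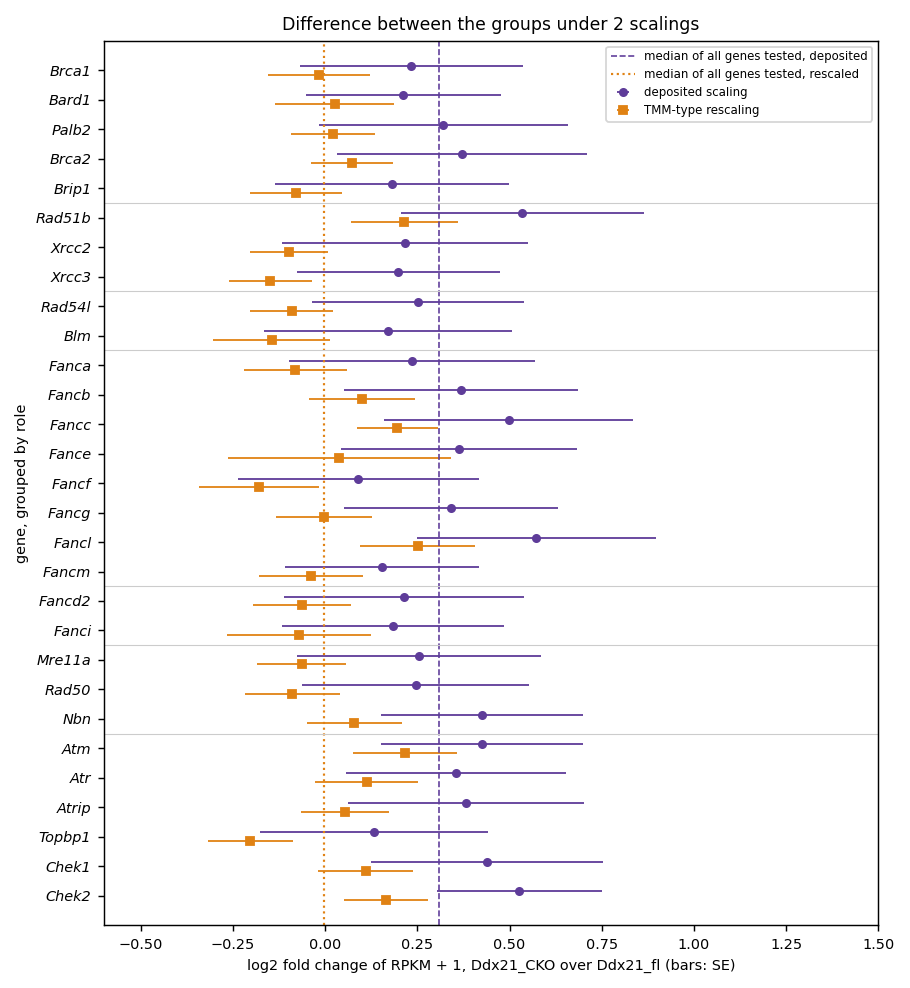
Log2 fold change of RPKM + 1 with its SE for each gene, CKO over fl (n = 2 each), with the deposited scaling (circles) and after rescaling (squares); vertical lines mark the medians of all genes tested. The deposited values scatter around 0.31 and the rescaled ones around -0.0028, and none of the 29 genes passed the test under either scaling.

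Levels per transcript length spanned a 25.1-fold range over the list. Chek2 was highest and Fancm lowest, with means over the 4 libraries of 25.8 and 1.03 RPKM. Nbn, Xrcc3, Rad54l and Fancg followed Chek2 at 11.8, 11.7, 10.04 and 9.82 RPKM, while Brca1, Fanci, Atr, Atm, Bard1 and Fancm stood under 2 RPKM at 1.85, 1.83, 1.74, 1.23, 1.04 and 1.03 RPKM. Of the 28 pairs of neighbours in this order, 26 had overlapping ranges over the libraries. The mean of 10 of the 29 lay above the median of all genes tested, 6.48 RPKM. Each value rested on between 201 and 3519 recovered reads.

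The starts of these genes were compared for letters bound by factors of cell cycle genes, in windows of 300 bases (250 before and 50 after the start) from RefSeq on GRCm38.p6. A window was found for 25 of the 29, and Fancd2, Xrcc2, Rad50 and Nbn were not looked at. Letters of the E2F family were searched on either strand. One form was TTCCCGC. Another form was TTGGCGC. A further form was TTCGCGC. The last form was TTGCCGC. At least 1 of them stood in 14 of the 25, or 56.0%, against 10.9% of 27025 genes with a window and 19.9% of the 8444 that are also in the table. The NF-Y box (CCAAT, either strand) stood in 17, or 68.0%, against 41.1% and 43.5%. The CHR element (TTTGAA, either strand) stood in 2, Bard1 and Rad51b, or 8.0%, against 20.2% and 14.8%. The form TTGGCGC, read on the other strand, can share bases with an NF-Y box, as in Fancf. In Topbp1 it overlaps a match to TTCGCGC on the other strand. A match is a description of letters and not a bound site. The 14 genes with E2F letters had a median log2 fold change of 0.22 and the 11 without 0.36, and after rescaling -0.0095 and 0.038, a difference that was not tested. The 14 were also less abundant (median 2.46 RPKM against 5.62), and adding 1 before the log understates changes of low genes.

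The 250 bases before the start are shown for the 2 genes with the smallest p-values, Chek2 (chr5:110839733-110839982, plus strand) and Fancl (chr11:26386834-26387083, plus strand), and for the 2 lowest after rescaling, Topbp1 (chr9:103305077-103305326, plus strand) and Fancf (chr7:51862268-51862517, minus strand), all chosen after their values were seen. Capitals mark E2F, NF-Y and CHR letters, and the sequences read 5′ to 3′ on the gene's strand.
Chek2: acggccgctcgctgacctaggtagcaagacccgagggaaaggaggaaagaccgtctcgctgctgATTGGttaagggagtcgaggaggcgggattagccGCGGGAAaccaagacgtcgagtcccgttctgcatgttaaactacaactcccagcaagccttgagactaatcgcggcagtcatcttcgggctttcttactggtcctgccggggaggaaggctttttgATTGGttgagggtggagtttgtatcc
Fancl: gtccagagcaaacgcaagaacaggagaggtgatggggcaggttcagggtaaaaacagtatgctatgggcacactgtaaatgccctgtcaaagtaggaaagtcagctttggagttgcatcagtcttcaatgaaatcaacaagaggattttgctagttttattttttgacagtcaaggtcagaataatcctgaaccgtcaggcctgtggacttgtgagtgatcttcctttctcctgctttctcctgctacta
Topbp1: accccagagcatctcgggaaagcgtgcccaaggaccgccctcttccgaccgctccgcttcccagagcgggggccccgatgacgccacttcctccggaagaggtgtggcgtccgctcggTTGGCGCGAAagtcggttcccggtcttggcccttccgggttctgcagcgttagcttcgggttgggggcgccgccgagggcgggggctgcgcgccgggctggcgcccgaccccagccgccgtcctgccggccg
Fancf: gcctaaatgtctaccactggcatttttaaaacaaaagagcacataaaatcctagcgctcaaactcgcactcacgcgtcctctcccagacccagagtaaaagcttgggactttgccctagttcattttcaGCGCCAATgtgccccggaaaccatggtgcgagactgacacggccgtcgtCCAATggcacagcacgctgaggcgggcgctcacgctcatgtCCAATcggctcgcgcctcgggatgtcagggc
Chek2 holds 1 E2F match between 2 NF-Y boxes and Topbp1 holds 2 overlapping E2F matches without an NF-Y box. Fancf holds 1 E2F match joined to the first of 3 NF-Y boxes. Fancl holds none of the letters, and its RefSeq start lies inside the gene as GENCODE draws it, so these bases may not be its promoter. The bases before the RefSeq start also lay wholly inside the GENCODE gene for Fancc, Fanci and Chek1. They lay partly inside for others, among them Topbp1, Fancg and Bard1. The counts of letters include these windows, so the same doubt applies to them.

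Among the checkpoint genes, Chek2 had the smallest p-value of the list in limma with the deposited scaling. This gene encodes the kinase that ATM activates after double-strand breaks (ENSMUSG00000029521, chromosome 5, 110839979 to 110874145, plus strand). It had 26.01 and 35.4 RPKM in the CKO libraries, against 21.7 and 19.9 RPKM in the fl libraries. Both CKO libraries lay above both fl libraries, with means of 30.7 ± 6.66 RPKM in CKO and 20.8 ± 1.29 RPKM in fl (SD, n = 2 each) and a log2 difference of 0.53 (SE 0.22, 95% interval 0.087 to 0.97, limma adjusted p = 0.213). After rescaling its values were 26.7 and 26.6 in CKO, against 24.1 and 23.2 in fl, still without overlap, and the log2 fold change was 0.16 (SE 0.12). Chek1, the kinase downstream of ATR, had 7.88 and 9.01 RPKM in the CKO libraries, against 5.78 and 6.13 RPKM in the fl libraries, a log2 difference of 0.44 (adjusted p = 0.423) and groups that overlapped once rescaled. Atm, the break-sensing kinase, had 1.26 and 1.86 RPKM in the CKO libraries, against 0.976 and 0.817 RPKM in the fl libraries, a log2 difference of 0.42 (SE 0.27, adjusted p = 0.396), and its groups stayed apart after rescaling at 0.22. At this low level the added 1 weighs on the value: the log2 difference of Atm was 0.72 with 0.1 added, above the 0.66 of Fancl, and 0.78 with voom on the deposited totals. Atr had 1.55 and 2.64 RPKM in the CKO libraries, against 1.46 and 1.31 RPKM in the fl libraries, where the fl libraries and CKO replicate 1 lay close together. Its partner Atrip, which brings ATR to single-stranded DNA, had 5.90 and 9.30 RPKM in the CKO libraries, against 5.83 and 5.13 RPKM in the fl libraries, with log2 fold changes of 0.36 for Atr and 0.38 for Atrip. Atrip shares 1147 exon bases with Trex1 on the same strand, so its value may hold reads of that gene. Topbp1, the activator of ATR, had 6.30 and 9.87 RPKM in the CKO libraries, against 7.19 and 7.07 RPKM in the fl libraries. CKO replicate 1 was its lowest library and CKO replicate 2 its highest, and after rescaling both CKO libraries were below both fl libraries (6.45 and 7.42 in CKO, against 7.99 and 8.25 in fl), with a log2 fold change of -0.20 (SE 0.12), also short of the threshold.

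In the BRCA group 0 of 5 genes passed the test. With the deposited scaling 4 of 5, Bard1 among them, had CKO above fl without overlap, against 55.5% of all genes. After rescaling it was 1 of 5, against 26.7%. Brca2, which delivers the recombinase to the DNA end (chromosome 5, 150522630 to 150570329, plus strand), had 3.97 and 4.97 RPKM in the CKO libraries, against 3.29 and 3.14 RPKM in the fl libraries. Its log2 fold change was 0.37 (SE 0.34, adjusted p = 0.496) and 0.073 after rescaling, with no overlap under either scaling. Palb2, the link between BRCA1 and BRCA2, had 3.61 and 5.19 RPKM in the CKO libraries, against 3.51 and 3.06 RPKM in the fl libraries, with a log2 difference of 0.32 (SE 0.34, adjusted p = 0.543) and 0.021 after rescaling. Brca1, a ubiquitin ligase that promotes resection, had 1.56 and 2.65 RPKM in the CKO libraries, against 1.63 and 1.56 RPKM in the fl libraries, so CKO replicate 1 lay at the level of the fl libraries and CKO replicate 2 above them. Bard1, the partner of BRCA1 in the ligase, had 1.15 and 1.22 RPKM in the CKO libraries, against 1.03 and 0.747 RPKM in the fl libraries. Brip1, a helicase that binds BRCA1, had 2.12 and 2.70 RPKM in the CKO libraries, against 1.94 and 2.06 RPKM in the fl libraries. The log2 fold changes of Brca1, Bard1 and Brip1 were 0.23, 0.21 and 0.18, and after rescaling -0.017, 0.026 and -0.079, each within 1 SE of 0 there.

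The recombinase paralogs and the motor proteins split between the scalings. Rad51b, a paralog that helps assemble recombinase filaments (chromosome 12, 79297282 to 79814690, plus strand), had 5.21 and 8.56 RPKM in the CKO libraries, against 4.92 and 3.78 RPKM in the fl libraries. Its log2 fold change of 0.53 (SE 0.33, adjusted p = 0.381) became 0.21 after rescaling, where the groups overlapped. Xrcc3, of the paralog complex that acts late in recombination, had 10.5 and 14.8 RPKM in the CKO libraries, against 11.5 and 9.99 RPKM in the fl libraries, and Xrcc2 had 4.75 and 6.33 RPKM in the CKO libraries, against 4.62 and 4.55 RPKM in the fl libraries. Deposited values of Xrcc3 overlapped and those of Xrcc2 were higher in CKO (0.20 and 0.22), whereas after rescaling both genes were lower in both CKO libraries (-0.15 and -0.10). Rad54l, a motor protein that helps the recombinase find its template, had 9.95 and 12.1 RPKM in the CKO libraries, against 9.25 and 8.88 RPKM in the fl libraries, a log2 difference of 0.25 (SE 0.29, adjusted p = 0.570) and -0.090 after rescaling. Blm, the helicase that takes apart joined chromatids, had 3.48 and 6.66 RPKM in the CKO libraries, against 4.36 and 4.07 RPKM in the fl libraries. It was lowest in CKO replicate 1 and highest in CKO replicate 2, with a log2 difference of 0.17 (SE 0.34, adjusted p = 0.732) that became -0.15 (SE 0.16) after rescaling.

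Of the 8 genes of the Fanconi core complex and its anchor 0 passed the test. With the deposited scaling 5 of 8, Fancm among them, had CKO above fl without overlap, against 55.5% of all genes. After rescaling it was 2 of 8, against 26.7%. Fancl, the ubiquitin ligase subunit of the complex, had 6.61 and 8.62 RPKM in the CKO libraries, against 5.70 and 3.94 RPKM in the fl libraries. Its means were 7.61 ± 1.42 RPKM in CKO and 4.82 ± 1.24 RPKM in fl (SD, n = 2 each), and the log2 fold change of 0.57 (SE 0.32, 95% interval -0.064 to 1.21, adjusted p = 0.352) was 0.25 after rescaling. Its exons share 462 bases with Vrk2 on the other strand, and the strand used in counting is not given in the sources used here. Fancc, a core subunit, had 4.58 and 5.79 RPKM in the CKO libraries, against 3.47 and 3.25 RPKM in the fl libraries, higher in both CKO libraries under both scalings (0.50, SE 0.34, adjusted p = 0.409, and 0.19 after rescaling). An antisense gene, Gm16133, overlaps 16.4% of the Fancc exon bases. Fanca and Fancg, core subunits that bind each other, had 4.14 and 6.85 RPKM in the CKO libraries, against 4.91 and 3.94 RPKM in the fl libraries for Fanca, and 8.45 and 14.00 RPKM in the CKO libraries, against 8.85 and 7.97 RPKM in the fl libraries for Fancg. In both genes CKO replicate 1 lay between the fl libraries and CKO replicate 2 above them. Fancb, an X-linked core subunit, had 1.97 and 3.53 RPKM in the CKO libraries, against 1.86 and 1.82 RPKM in the fl libraries. Fance, the subunit that contacts FANCD2, had 7.09 and 8.01 RPKM in the CKO libraries, against 3.94 and 7.91 RPKM in the fl libraries. The fl libraries lay farther apart than the CKO libraries, and fl replicate 2 lay between the CKO libraries. Fancf, the adaptor of the complex, had 2.74 and 2.72 RPKM in the CKO libraries, against 2.32 and 2.71 RPKM in the fl libraries, with a log2 difference of 0.090 (adjusted p = 0.852), and 14.96% of its exon bases overlap Gas2. Fancm, the DNA translocase that anchors the complex, had 0.984 and 1.29 RPKM in the CKO libraries, against 0.973 and 0.861 RPKM in the fl libraries and was the lowest gene of the list. Log2 fold changes of Fanca, Fancb, Fance, Fancg and Fancm were 0.24, 0.37, 0.36, 0.34 and 0.15, and after rescaling -0.081, 0.10, 0.038, -0.0023 and -0.039.

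Both genes of the ubiquitinated pair had overlapping groups. Fancd2 (chromosome 6, 113531682 to 113597017, plus strand) had 2.21 and 3.58 RPKM in the CKO libraries, against 2.53 and 2.10 RPKM in the fl libraries, and Fanci (chromosome 7, 79391929 to 79450264, plus strand) had 1.22 and 2.92 RPKM in the CKO libraries, against 1.64 and 1.54 RPKM in the fl libraries. In Fanci the CKO libraries lay on opposite sides of the fl libraries, CKO replicate 1 lowest and CKO replicate 2 highest, at 246 and 591 recovered reads. The log2 fold changes were 0.21 (SE 0.33, adjusted p = 0.661) for Fancd2 and 0.18 (SE 0.30, adjusted p = 0.678) for Fanci, and -0.064 and -0.071 after rescaling. Fanci shares 15.95% of its exon bases with Polg on the other strand.

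The MRN complex, which holds broken ends and recruits ATM, had 1 of 3 genes higher in CKO without overlap with the deposited scaling, against 55.5% of all genes, and 0 of 3 after rescaling, against 26.7%. Nbn, its signalling subunit, had 12.9 and 14.6 RPKM in the CKO libraries, against 10.5 and 9.42 RPKM in the fl libraries, higher in both CKO libraries with a log2 difference of 0.42 (SE 0.27, adjusted p = 0.397) and 0.079 after rescaling, where groups overlapped. Mre11a, the nuclease, had 4.79 and 6.997 RPKM in the CKO libraries, against 4.47 and 4.95 RPKM in the fl libraries (0.25, adjusted p = 0.608). Rad50, the ATPase that bridges ends, had 6.74 and 10.3 RPKM in the CKO libraries, against 7.68 and 6.16 RPKM in the fl libraries (0.24, adjusted p = 0.597). For Mre11a and Rad50 the groups overlapped under both scalings, and the rescaled log2 fold changes were -0.064 and -0.089.

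The 95% intervals differed from gene to gene. The lowest and highest bounds over the 29 were -0.55 and 1.21 on the log2 scale, and SEs ran from 0.22 to 0.34. A missed threshold does not show that levels were equal.

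Of these genes 12 start close to a neighbour on the other strand. Most of the pairs run apart, but Fancf and Gas2, and Mre11a and Ankrd49, overlap at their starts. A protein-coding gene on the other strand starts within 1000 bases for 12 of the 29, or 41.4%, against 18.1% of the 10178 protein-coding genes in the table. The starts of Fancd2 and Emc3 lie 30 bases apart, those of Palb2 and Dctn5 56, those of Brca1 and Nbr1 194 and those of Chek2 and Hscb 202. Hscb, which encodes a chaperone of iron-sulfur cluster assembly, had 23.2 and 34.7 RPKM in the CKO libraries, against 19.6 and 14.3 RPKM in the fl libraries. Of the 11 neighbours analysed it alone was called, against 3.33% of all genes called higher and 0.860% lower. Its log2 difference was 0.73 (SE 0.23, limma adjusted p = 0.0426) and 0.37 after rescaling, where limma called no gene. Nbr1, an autophagy receptor gene, had 11.2 and 14.4 RPKM in CKO and 7.79 and 6.97 RPKM in fl, with a log2 difference of 0.71 (adjusted p = 0.181) beside 0.23 for Brca1.

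Further genes of the pathway were counted beside the 29. Of 57 tested, 0 were called in either direction, against 3.33% of all genes higher and 0.860% lower. The median log2 fold change was 0.29, and 3 had an unadjusted p under 0.05, against 16.2% of all genes. These were Zswim7, a partner of recombinase regulators, at 8.63 and 12.3 RPKM in CKO and 6.85 and 5.19 RPKM in fl (0.70, adjusted p = 0.227), the paralog gene Rad51d at 9.34 and 14.3 RPKM in CKO and 7.68 and 6.70 RPKM in fl (0.62, adjusted p = 0.270) and the core-associated Faap20 at 24.5 and 34.4 RPKM in CKO and 22.6 and 19.2 RPKM in fl (0.46, adjusted p = 0.287). Picked by p-value, these 3 had rescaled log2 fold changes of 0.37, 0.28 and 0.10. Of the 57, 34 were higher and 1 lower in CKO without overlap, against 55.5% and 7.38% of all genes. After rescaling the median of the 57 was -0.027, with a range from -0.63 to 0.37. Then 12 were higher and 17 lower without overlap, against 26.7% and 27.9% of all genes. At an unadjusted limma p under 0.05 it was 4 of the 57, against 15.6%.

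Proliferation genes, many of which are known E2F targets, had lower fold changes than the 29 at the median. Of 30 tested 0 were called under either scaling. At an unadjusted p under 0.05 it was 0 of 30 with the deposited scaling, against 16.2% of all genes, and 9 of 30 after rescaling, against 15.6%. After rescaling 18 of 30 were lower in CKO without overlap and 0 higher, against 27.9% and 26.7% of all genes. Their median log2 fold change was 0.040, beside 0.25 for the 29 recombination genes and 0.31 for all genes, and 2 of the 30 lay above the median of all genes against 14 of the 29. The smallest p-values belonged to Ccne1, a cyclin of S phase entry (0.45, adjusted p = 0.331), the mitotic cyclin Ccnb1 (-0.23, adjusted p = 0.443) and the replication licensing gene Cdt1 (0.30, adjusted p = 0.459). Ccnb1 had 70.5 and 113 RPKM in the CKO libraries, against 106 and 104 RPKM in the fl libraries, so its groups overlapped. After rescaling the proliferation genes stood at a median of -0.13 in CKO replicate 1 and -0.48 in CKO replicate 2 against the fl mean, and the 29 at -0.024 and 0.025. The difference between the lists was not tested, and proliferation genes are more abundant (median 62.4 RPKM against 4.96).

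**Figure D3:**
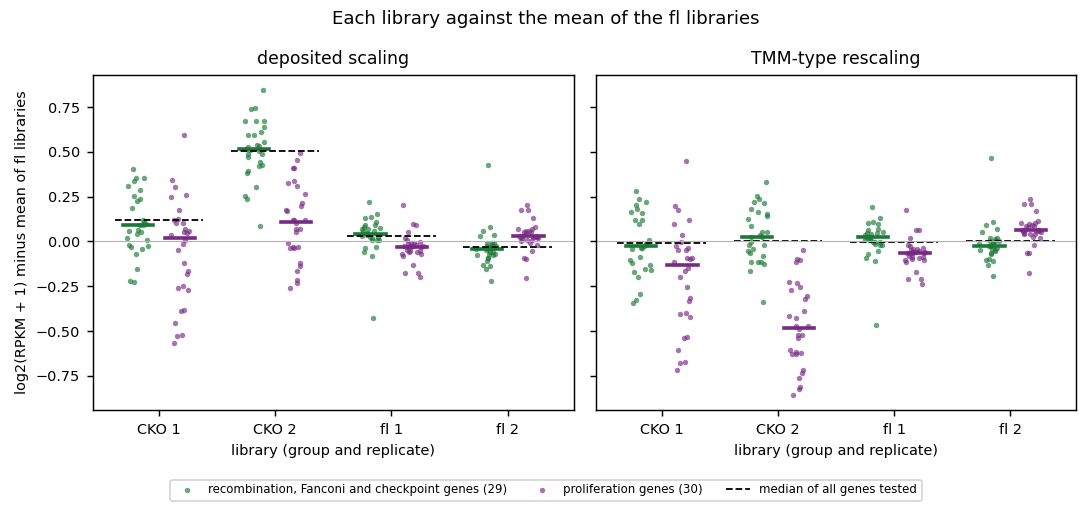
Each gene's log2(RPKM + 1) in each library minus the mean of the fl libraries, for the 29 recombination, Fanconi and checkpoint genes (green) and 30 proliferation genes (purple); thick lines are list medians and dashed lines the medians of all genes tested. With the deposited scaling (left) the 29 follow all genes in both CKO libraries, and after rescaling (right) the proliferation genes lie lowest in CKO replicate 2 (median -0.48).

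Genes of other lists were called in the same libraries by limma with the deposited scaling. All 9 tested p53 targets of a list of 10 were called higher, and voom with rescaling called 6 of the 9, while limma on rescaled values called none. Cdkn1a, the cell cycle inhibitor p21, had 31.5 and 64.3 RPKM in the CKO libraries, against 2.61 and 2.10 RPKM in the fl libraries (log2 fold change 3.78, adjusted p = 2.46e-39). Of 7 progenitor markers 5 were called lower and 2 had positive log2 fold changes, up to 0.83. Of 9 stem cell markers 2 were called higher (voom with rescaling called 0 of 7 and 0 of 9). Neutrophil and monocyte markers held 1.07% and 0.666% of recovered reads in the CKO libraries, against 1.69% and 1.68% in the fl libraries, and 9 of 10 were called lower (1 of 10 by voom with rescaling). Osteoblast and stroma markers held 1.10% and 0.308% in the CKO libraries, against 0.0706% and 0.0578% in the fl libraries, and all 7 analysed were called higher (0 of 7 by voom with rescaling). The 29 recombination, Fanconi and checkpoint genes held 0.0600% and 0.0851% of reads in the CKO libraries, against 0.0567% and 0.0528% in the fl libraries. The part of the marker shifts in the values of the 29 was not tested. Without CKO replicate 1, 19 of the 29 were called higher and 0 lower, against 54.3% and 4.51% of all genes.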

How the data were processed

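For each of 12390 genes the authors deposited an RPKM value in every library (reads per length of transcript and per size of the library). The unit was inferred from the values, since no label states it. The submitters' processing notes name mm10. No source used here states the aligner, the counting tool, its use of strand or a filter. Values times the length of the longest GENCODE M21 transcript were whole multiples of 1 step per library, within 0.1, for 99.4% of values in each, which gave the recovered reads. Replicates differed beyond sampling noise (chi-square per degree of freedom 152 for CKO and 48.9 for fl), so each library counted as 1 sample. Genes with no reads are written as 0.001, and every gene exceeds 1 RPKM in some library.

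limma 3.58.1 in R 4.3.3 was fitted to log2(RPKM + 1), with a mean-variance trend and genotype as its only term, over the 11742 genes averaging 1 RPKM or more, and called at a Benjamini-Hochberg adjusted p under 0.05. Adding 1 before the log understates changes of low genes. With 2 residual degrees of freedom the fit replaced each gene's own spread by the trend over all genes. The fit was also run on simulated counts with known fold changes, which checks the code and not the calls made here. Rescaling used trimmed means of ratios. Alternatives were other scalings, pseudocounts, filters, variance models, voom on recovered reads, a replicate block and each library left out. Columns were tied to samples by the library names in the labels. The rule for genes given by library was called members, the smallest p-values of each role group (at least 2), the highest and lowest level, and, in the other lists, called genes and the 3 smallest p-values. The remaining members, the neighbours and the marker and p53 genes named were added after their values were seen. The members and lists were chosen with earlier results of these data known. Promoter windows are from RefSeq on GRCm38.p6, the same assembly as mm10, and windows of all 25 genes matched the strand of their transcripts. The titles' replicate numbers did not pair libraries.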

Additional observations from a re-analysis of the deposited data

How the results depend on the processing

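The count of 0 called genes among the 29 held under every alternative run except leaving out CKO replicate 1, where 19 were called higher; leaving out each library gave 0 to 19 higher and 0 lower. The other pathway genes had 0 to 36 called higher and 0 to 1 lower over the same 4 fits. Over all genes the calls ranged from 27 to 6375 higher and from 5 to 530 lower with a library left out, and from 0 to 201 higher and 0 to 1091 lower with rescaling as well, fits added after seeing the data that called 0 of the 29 (22 higher and 7 lower without fl replicate 1, 19 and 13 without fl replicate 2, 0 and 0 without CKO replicate 2, 201 and 1091 without CKO replicate 1). All-gene calls were 0 higher and 0 lower with rescaling and with quantile normalization, 36 and 13 with voom and rescaling, 235 higher at a mean of at least 5 RPKM and 52 lower without a mean-variance trend. With the replicate block they were 175 higher and 64 lower, and 0 of the 29; deviations of same-numbered libraries had a correlation of 0.067 over genes, so the numbers were not taken as pairs. The median of all genes was -0.0028 with rescaling, 0.014 with quantile normalization and -0.00070 with voom and rescaling, and that of the 29 was -0.052 with quantile normalization.

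Signs turned as follows, with log2 fold changes. With rescaling they were Brca1 -0.017, Brip1 -0.079, Xrcc2 -0.10, Xrcc3 -0.15, Rad54l -0.090, Blm -0.15, Fanca -0.081, Fancf -0.18, Fancg -0.0023, Fancm -0.039, Fancd2 -0.064, Fanci -0.071, Mre11a -0.064, Rad50 -0.089, Topbp1 -0.20 and Cdt1 -0.052. With quantile normalization they were Brca1 -0.091, Bard1 -0.052, Palb2 -0.033, Brip1 -0.15, Xrcc2 -0.15, Xrcc3 -0.12, Rad54l -0.094, Blm -0.19, Fanca -0.12, Fancf -0.25, Fancm -0.13, Fancd2 -0.13, Fanci -0.15, Mre11a -0.11, Rad50 -0.11 and Topbp1 -0.23. With voom and rescaling they were Brca1 -0.011, Brip1 -0.12, Xrcc2 -0.12, Xrcc3 -0.16, Rad54l -0.10, Blm -0.16, Fanca -0.082, Fancf -0.28, Fancm -0.080, Fancd2 -0.073, Fanci -0.087, Mre11a -0.075, Rad50 -0.10, Topbp1 -0.23 and Cdt1 -0.052. Over the fits with a library left out, genes whose sign turned ranged as Blm -0.22 to 0.56, Brca1 -0.022 to 0.49, Ccnb1 -0.57 to 0.10, Fanca -0.070 to 0.54, Fancd2 -0.043 to 0.47, Fance -0.062 to 0.79, Fanci -0.23 to 0.60, Rad50 -0.027 to 0.52, Topbp1 -0.16 to 0.42, Xrcc3 -0.031 to 0.43. Causes were not tested, but rescaling and quantile normalization take out a shift common to all genes by construction. A filter at a mean of at least 5 RPKM left 14 of the 29 in the test. With 1 library left out, the lone library of its group is assumed to vary like the others. With 2 libraries a group, the spread behind the p-values was borrowed from other genes, wholly in limma on the deposited values. In limma after rescaling it was borrowed only in part, and SEs followed the gene (0.30 for Fance, 0.11 for Fancc).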

Other observations

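DNA end joining, the other main route of break repair, joins ends without a template and was described by 15 genes, of which 14 were analysed. None was called, and their median log2 fold change was 0.35. Of the 14, 11 were higher and 1 lower in both CKO libraries, against 55.5% and 7.38% of all genes. Xrcc5, which encodes the Ku80 subunit that binds broken ends, had 15.9 and 19.7 RPKM in the CKO libraries, against 11.7 and 12.6 RPKM in the fl libraries, with a log2 difference of 0.51 (SE 0.26, limma adjusted p = 0.302). Its partner Xrcc6, which encodes Ku70, had 28.5 and 33.6 RPKM in the CKO libraries, against 24.6 and 22.2 RPKM in the fl libraries (0.39, adjusted p = 0.352), and the end joining factor gene Paxx had 22.9 and 31.7 RPKM in the CKO libraries, against 20.2 and 19.97 RPKM in the fl libraries (0.41, adjusted p = 0.348). After rescaling these 3 stood at 0.16, 0.028 and 0.046, and the median of the 14 was 0.040, with a range from -0.57 to 0.29. Then 5 of the 14 were higher and 1 lower without overlap, against 26.7% and 27.9% of all genes.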
